A study of Homo sapiens with 4 samples.

Results

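The transcripts of 10 p53 target genes were examined in T98G cells, CDKN1A, GADD45A, PLK3, MDM2, FAS, GDF15, DDB2, XPC, SESN1 and ZMAT3. They were taken by name from a count table of 20913 genes, and all 10 were present and passed the filter on low counts. T98G is an established human glioblastoma line, and the cell type field of the labels calls it astroblastoma. One group of 2 RNA-seq libraries, with replicate numbers 2 and 3, came from T98G cells with a vector, and the other group of 2, with the same numbers, came from T98G cells that overexpressed LGP2. The column names of that second group carry the word flag. The labels do not describe the vector, its promoter or whether clones or pools were used. LGP2, encoded by DHX58, is an RNA helicase related to the virus sensors RIG-I and MDA5. Library totals ran from 56033379 to 63932198 counts.

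p53 is a transcription factor that is stabilised after DNA damage and other stress. It binds pairs of a decamer half-site near its targets and raises genes that stop the cell cycle, repair DNA, start cell death or feed back on p53 itself. Many of the targets can also be driven by other factors. T98G was taken to be a p53-mutant line, which was not checked in these libraries. The state and activity of p53 in these cells were not measured here, so the levels below are not a readout of p53.

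Matches to the p53 half-site near annotated starts of these genes are shown first. They are matches of letters, and binding of p53 was not measured. RefSeq windows on GRCh38.p14, from 250 bases before to 50 bases after each annotated start, were given for 9 of the 10 genes, 18 windows in all, and none was given for GADD45A. The windows were searched for the p53 half-site decamer, a pattern that is its own reverse complement, so that reading one strand covers both. A single half-site without mismatch lay in 3 of the 18 windows, belonging to DDB2, FAS and SESN1, and in 6.63% of the 35116 windows of all genes. A pair of half-sites without mismatch and with a spacer of 0 to 13 bases lay in 1 of the 18, at DDB2, and in 0.0285% of all windows. When adjoining half-sites with at most 2 mismatches outside their central C and G were allowed, a criterion chosen after the windows had been read, 4 of the 18 windows matched, at DDB2, FAS and MDM2, against 0.285% of all windows. Windows of nearby starts overlap, and 2 of the 4 hold the same MDM2 site. The matches of these 3 genes are printed 5′ to 3′ on the plus strand, with the half-sites in capitals. For DDB2 the pair without mismatch is shown; its other match overlaps it.
DDB2, chr11:47214975-47215004, in an exon: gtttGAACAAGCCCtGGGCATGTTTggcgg
FAS, chr10:88991304-88991333, in an exon: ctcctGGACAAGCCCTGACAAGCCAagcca
MDM2, chr12:68808883-68808982, in an intron: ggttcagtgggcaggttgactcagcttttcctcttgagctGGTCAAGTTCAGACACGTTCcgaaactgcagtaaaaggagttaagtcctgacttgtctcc

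Exons and introns here are those of GENCODE 29. The DDB2 pair begins 5 bases after the later of its annotated starts. The MDM2 pair begins 94 bases before one of the starts inside the gene, the region known as its p53-responsive second promoter. The windows of CDKN1A, GDF15, PLK3, XPC and ZMAT3 held no match to these criteria, which says only that these letters are not in these windows. The GC box, GGGCGG on either strand, lay in a window of each of the 9 genes and in 45.0% of all windows, and TATAAA on the plus strand lay in the window of GDF15 and in 7.33% of all windows.

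The identity of the cells and of the construct was checked on the same libraries. DHX58 was at 6.20 and 9.40 CPM (read counts per 1000000 counts of the library, with library totals scaled by the trimmed mean of M-values, TMM) in the vector libraries and at 542 and 523 CPM with LGP2. All 9 mesenchymal glioblastoma markers were present, with a summed level of 11204 to 13717 CPM in the vector libraries and 10882 to 11587 CPM with LGP2. Of 6 astrocyte markers 4 were present, summing to 2.93 to 4.30 CPM in the vector libraries and 4.87 to 6.88 CPM with LGP2, and GFAP, which defines the type, was at 0.346 to 0.693 CPM over all libraries. The growth text of the labels speaks of 293T cells. Of 4 markers of that line 1 was in the table, PAX2, at 0.362 to 0.871 CPM. Of 5 microglia and macrophage markers 3 were in the table, summing to 0.604 to 1.56 CPM.

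TP73, which encodes a relative of p53 that can bind the same sites, was at 3.11 ± 1.21 CPM in the vector libraries and 3.51 ± 0.396 CPM with LGP2 (SD, n = 2 each), while TP63, another relative, went no higher than 0.995 CPM in any library. CDKN2A, whose ARF product holds back MDM2, had 4 to 20 counts per library.

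LGP2 overexpression was set against vector in one test across all genes, edgeR's quasi-likelihood test with Benjamini-Hochberg adjustment over 17863 genes. None of the 10 p53 targets passed at an adjusted p under 0.05, and neither did any by DESeq2 or limma-voom. Over all genes 0.0168% passed by edgeR, 0.133% by DESeq2 and 0.0336% by limma-voom. At an unadjusted p under 0.05, edgeR gave 2 of the 10, CDKN1A and GADD45A, both lower, where the share over all genes was 4.46%. DESeq2 gave 1 at that level, CDKN1A, with GADD45A at a p of 0.0981, and limma-voom gave the same 2 as edgeR. Over all genes DESeq2 gave 856 of 20913 at that level and limma-voom 919 of 17863. Fits without 1 vector library keep a single vector library, so only their effect sizes are given in this paragraph. Calls from such fits, given further on, do not measure the spread between vector libraries. Without vector replicate 3 the log2 fold changes were -0.39 for CDKN1A, -1.45 for GADD45A, 0.76 for MDM2 and 0.56 for ZMAT3. Without vector replicate 2 they were -0.29, -0.22, 0.12 and 0.04. The median log2 fold change of the 10 was -0.03, beside -0.0080 over all genes tested, with 5 members above 0 and 5 below. For 9 of the 10, GADD45A being the exception, the 95% interval lay inside a 2-fold change in either direction, which held for 61.1% of all genes. The 10 were more abundant, with a median level of 30.3 CPM against 5.84 CPM over all genes of the table. A single gene compared by an exact permutation test of 2 libraries against 2 cannot reach a two-sided p below 0.333, so no such test is given.

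**Figure D1:**
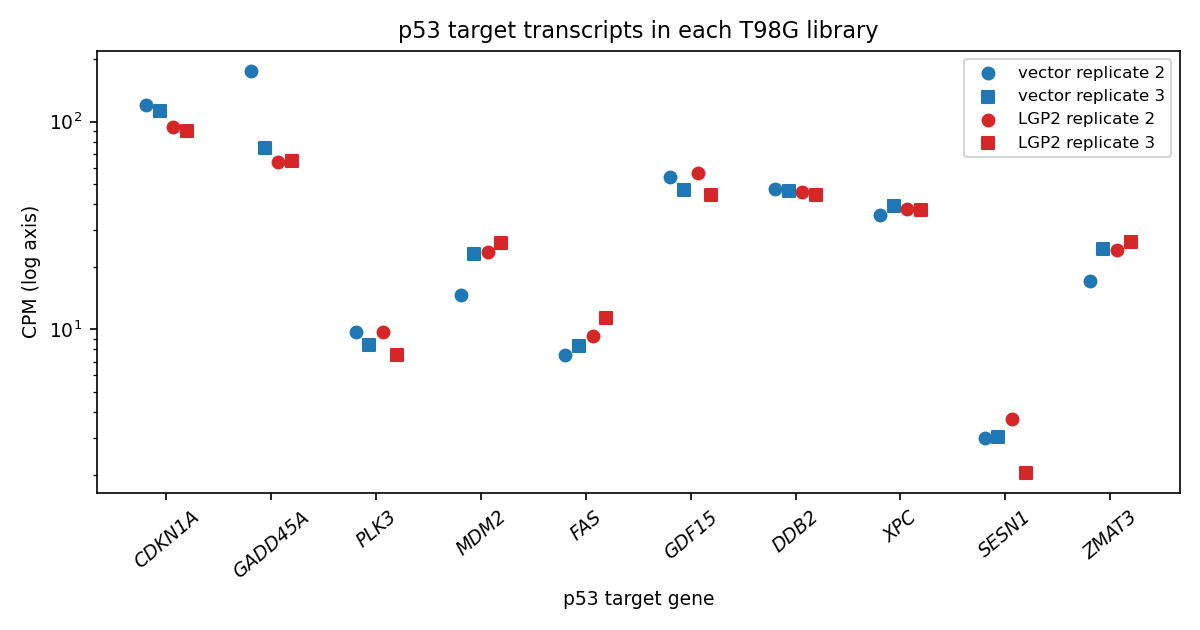
Levels of the 10 p53 targets in each library, in TMM-scaled CPM on a log axis; blue marks are vector and red marks LGP2, circles replicate 2 and squares replicate 3. GADD45A in vector replicate 2, at 175 CPM, stands above the other 3 libraries at 63.9 to 74.7 CPM, while DDB2 and XPC vary little.

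Among the genes that stop the cell cycle, CDKN1A encodes p21, the inhibitor of cyclin-dependent kinases through which p53 arrests cells. CDKN1A was at 121 and 113 CPM in the vector libraries and at 94.5 and 89.9 CPM with LGP2. Both LGP2 libraries thus lay below both vector libraries, by more than the gap within either pair. In bulk RNA a smaller share of cells with the transcript and less of it per cell cannot be told apart. Its log2 fold change was -0.34 (SE 0.14, 95% interval -0.64 to -0.04), at an unadjusted p of 0.0314 and an adjusted p of 0.998 by edgeR. In the fits that left out a library it lay between -0.39 and -0.29. Because the groups did not overlap, leaving out a library could not turn its sign, so these fits show only its size. Groups that did not overlap were found for 5 of the 10 genes, 2 with LGP2 higher and 3 with LGP2 lower, beside 33.2% of all genes tested.

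GADD45A encodes a small stress protein that binds p21 and PCNA and is induced by DNA damage. GADD45A was at 175 and 74.7 CPM in the vector libraries and at 63.9 and 64.9 CPM with LGP2. Vector replicate 2 was 2.35-fold above vector replicate 3, while the LGP2 libraries nearly coincided. GADD45A had a log2 fold change of -0.96 (SE 0.30, 95% interval -1.63 to -0.29), the largest in size among the 10, at an unadjusted p of 0.00945 and an adjusted p of 0.998 by edgeR. Without vector replicate 2 it shrank to -0.22 (unadjusted p = 0.202), and without vector replicate 3 it was -1.45 (adjusted p = 2.6e-12, edgeR). That last fit holds a single vector library and takes its spread from the LGP2 pair alone, so its call does not measure the spread between vector libraries, and it called 2.31% of all genes.

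Immediate early genes, which growth factors and stress switch on within minutes, were high in the same library. Of 14 tested genes of that list, 13 had their highest level in vector replicate 2, and the 15 present summed to 1505 CPM there, against 832 CPM in the vector libraries replicate 3 and 801 and 693 CPM with LGP2. The median log2 fold change of the 14 was -0.61, and it was -0.29 or -0.81 when vector replicate 2 or 3 was left out and -0.86 or -0.49 when LGP2 replicate 2 or 3 was. By edgeR 10 of them, all lower, had an unadjusted p under 0.05, which 4.46% of all genes had, although none passed over all genes; DESeq2 called 1 of them and limma-voom 0. JUN was at 490 and 228 CPM in the vector libraries and at 229 and 159 CPM with LGP2. FOSL1 was at 563 and 286 CPM in the vector libraries and at 285 and 301 CPM with LGP2. For both factors vector replicate 3 lay within 1 CPM of an LGP2 library. That was not so for the whole list. For 8 of the 14 both LGP2 libraries lay below both vector libraries, and for 0 both lay above. Over all genes tested 33.2% had groups that did not overlap, 16.5% with LGP2 lower. The part of the state of vector replicate 2 in the GADD45A difference was not tested.

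PLK3, a polo-like kinase active in the stress response, was among the low members. PLK3 was at 9.74 and 8.41 CPM in the vector libraries and at 9.69 and 7.54 CPM with LGP2. The groups overlapped, and in each group replicate 2 was the higher library. PLK3 had a fitted log2 fold change of -0.08 (SE 0.23, 95% interval -0.60 to 0.44).

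MDM2 encodes the ubiquitin ligase that marks p53 for destruction, and its rise after p53 activation closes the feedback loop. MDM2 was at 14.7 and 23.0 CPM in the vector libraries and at 23.7 and 26.1 CPM with LGP2. The groups did not overlap, but vector replicate 3 lay 0.692 CPM below the nearer LGP2 library. The fitted log2 fold change was 0.40 (SE 0.23, 95% interval -0.11 to 0.92) and did not pass (adjusted p = 0.998, edgeR). It was 0.12 without vector replicate 2 and 0.76 without vector replicate 3, so its size depended on which vector library was kept. MDM4, the MDM2 relative that binds and masks p53, was at 11.7 ± 2.72 CPM in the vector libraries and 13.1 ± 1.32 CPM with LGP2, and PPM1D, a phosphatase that switches the pathway off, at 8.94 ± 1.19 and 9.67 ± 0.554 CPM (SD, n = 2 per group).

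FAS, a death receptor at the cell surface, also had its higher pair with LGP2. FAS was at 7.54 and 8.35 CPM in the vector libraries and at 9.24 and 11.3 CPM with LGP2. The groups did not overlap, and the LGP2 libraries differed from each other by more than the groups' nearest values did. FAS had a fitted log2 fold change of 0.37 (SE 0.23, 95% interval -0.13 to 0.87) and did not pass. It was 0.30 or 0.45 when vector replicate 2 or 3 was left out and 0.51 or 0.22 when LGP2 replicate 2 or 3 was. ACTA2, on the opposite strand and overlapping FAS exons, had 199 to 336 counts against 458 to 737 for FAS, and its log2 fold change was -0.39 (unadjusted p = 0.252, edgeR). The use of strand in counting is not known, so reads from the shared stretch cannot be told apart.

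GDF15 encodes a secreted stress cytokine that is a target of p53 and also of the integrated stress response factors ATF4 and CHOP. GDF15 was at 53.9 and 46.9 CPM in the vector libraries and at 56.7 and 44.2 CPM with LGP2. The LGP2 pair enclosed the vector pair, and the group means were 50.4 ± 5.00 and 50.4 ± 8.88 CPM (SD, n = 2 per group). The fitted log2 fold change was 0.00077 (SE 0.17, 95% interval -0.38 to 0.38). None of the 10 ATF4 and CHOP targets passed by edgeR, and their median log2 fold change was 0.05, which ran from -0.09 without LGP2 replicate 3 to 0.12 without vector replicate 2. ATF4 was at 896 and 635 CPM in the vector libraries and at 671 and 651 CPM with LGP2. The cystine transporter gene SLC7A11 was at 177 and 236 CPM in the vector libraries and 275 and 273 CPM with LGP2. It was the 1 gene of that list with an unadjusted p under 0.05 by edgeR, which 4.46% of all genes had. DESeq2 and limma-voom also gave 1 gene each at that level and called none.

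The DNA repair targets were the steadiest members. DDB2, which recognises ultraviolet lesions in chromatin, was at 47.4 and 46.4 CPM in the vector libraries and at 45.7 and 44.5 CPM with LGP2. XPC, which senses distorted DNA and starts nucleotide excision repair, was at 35.5 and 39.4 CPM in the vector libraries and at 38.0 and 37.6 CPM with LGP2. The DDB2 groups did not overlap but lay within a few CPM of each other, and the XPC pair with LGP2 lay between the vector libraries. Log2 fold changes were -0.06 (SE 0.15, 95% interval -0.39 to 0.28) for DDB2 and 0.01 (SE 0.16, 95% interval -0.35 to 0.38) for XPC. LSM3, on the opposite strand and overlapping the start of XPC, had 5414 to 7469 counts, more than the 2136 to 2447 of XPC.

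SESN1 encodes a sestrin, a stress protein that restrains the growth kinase mTORC1. It had the fewest reads of the 10, with 182 and 185 counts in vector and 209 and 133 counts with LGP2. SESN1 was therefore at 2.99 and 3.05 CPM in the vector libraries and at 3.72 and 2.04 CPM with LGP2, and the LGP2 libraries lay on either side of the vector pair. The fitted log2 fold change was -0.07 (SE 0.37, 95% interval -0.89 to 0.75), the widest interval of the 10. It was -0.56 without LGP2 replicate 2 and 0.30 without LGP2 replicate 3.

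ZMAT3 encodes a zinc finger protein that binds RNA and is a direct p53 target. ZMAT3 was at 17.0 and 24.5 CPM in the vector libraries and at 24.1 and 26.3 CPM with LGP2. Vector replicate 2 stood below the other 3 libraries, as it did for MDM2, and the groups overlapped. The fitted log2 fold change was 0.28 (SE 0.21, 95% interval -0.20 to 0.76), and it was 0.04 without vector replicate 2 and 0.56 without vector replicate 3.

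Vector replicate 2 was the highest or the lowest of the libraries for 8 of the 10 genes, highest for CDKN1A, GADD45A, DDB2 and PLK3 and lowest for MDM2, FAS, ZMAT3 and XPC. The same held for 60.7% of all genes tested. The 3 genes with a p53 pair in their windows did not share a direction, with log2 fold changes of -0.06 for DDB2, 0.37 for FAS and 0.40 for MDM2, none of which passed.

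**Figure D2:**
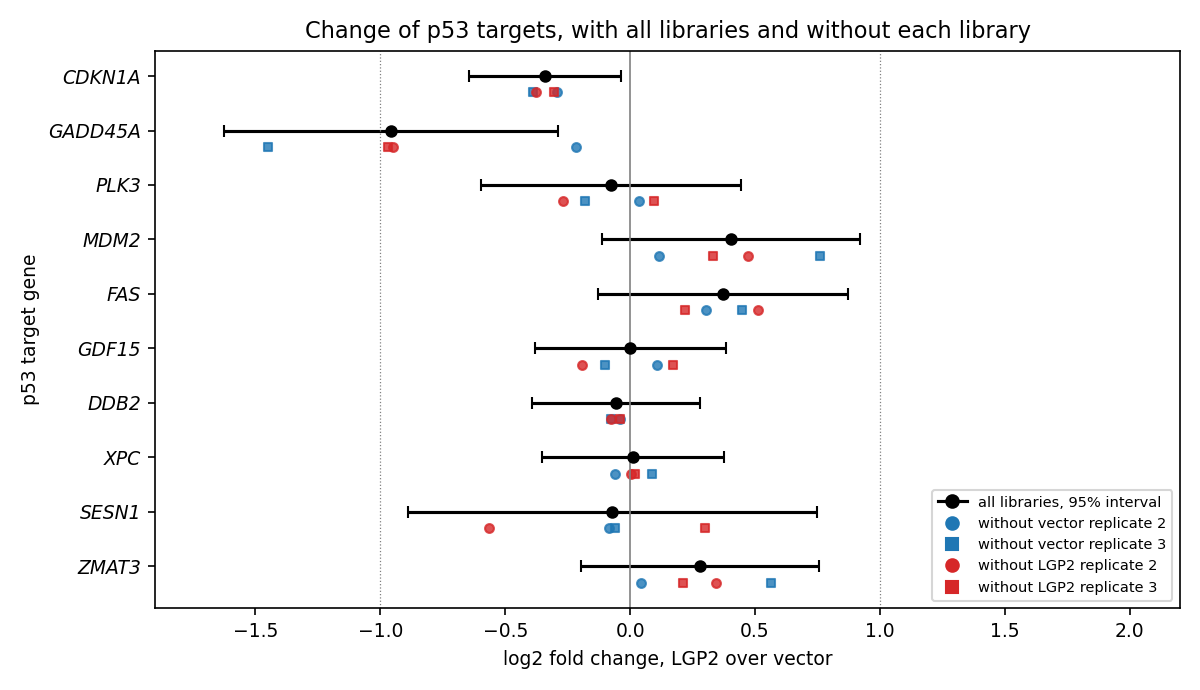
Log2 fold changes of LGP2 over vector for the 10 p53 targets; black points and bars are the fit of all libraries with its 95% interval, and the coloured marks beneath are fits without 1 library, with dotted lines at a 2-fold change. The GADD45A estimate moves from -1.45 to -0.22 with the vector library left out, while CDKN1A stays between -0.39 and -0.29.

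Levels between the genes were compared per length, as CPM per kilobase of all exons annotated in GENCODE 29. In the vector libraries the order was GADD45A at 60.4 ± 34.4, CDKN1A at 38.3 ± 1.77 and GDF15 at 24.1 ± 2.40 CPM per kilobase (SD, n = 2). DDB2 at 9.58 ± 0.145 and XPC at 7.80 ± 0.577 CPM per kilobase followed. PLK3 was at 2.61 ± 0.270, ZMAT3 at 2.15 ± 0.544, FAS at 1.87 ± 0.135 and MDM2 at 1.42 ± 0.442 CPM per kilobase, and SESN1 was lowest at 0.590 ± 0.00713. GADD45A and CDKN1A overlapped in range, and so did PLK3 with ZMAT3 and ZMAT3 with FAS, whereas CDKN1A, GDF15, DDB2 and XPC were separate from one another. With LGP2 the order of GADD45A, CDKN1A, GDF15, DDB2 and XPC was the same, at 31.1 ± 0.345, 30.2 ± 1.08, 24.2 ± 4.25, 9.21 ± 0.175 and 7.87 ± 0.0556 CPM per kilobase, and GADD45A again overlapped CDKN1A. The MDM2 value is divided by 13284 bases of annotated exon, which includes exons that few of its transcripts use.

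**Figure D3:**
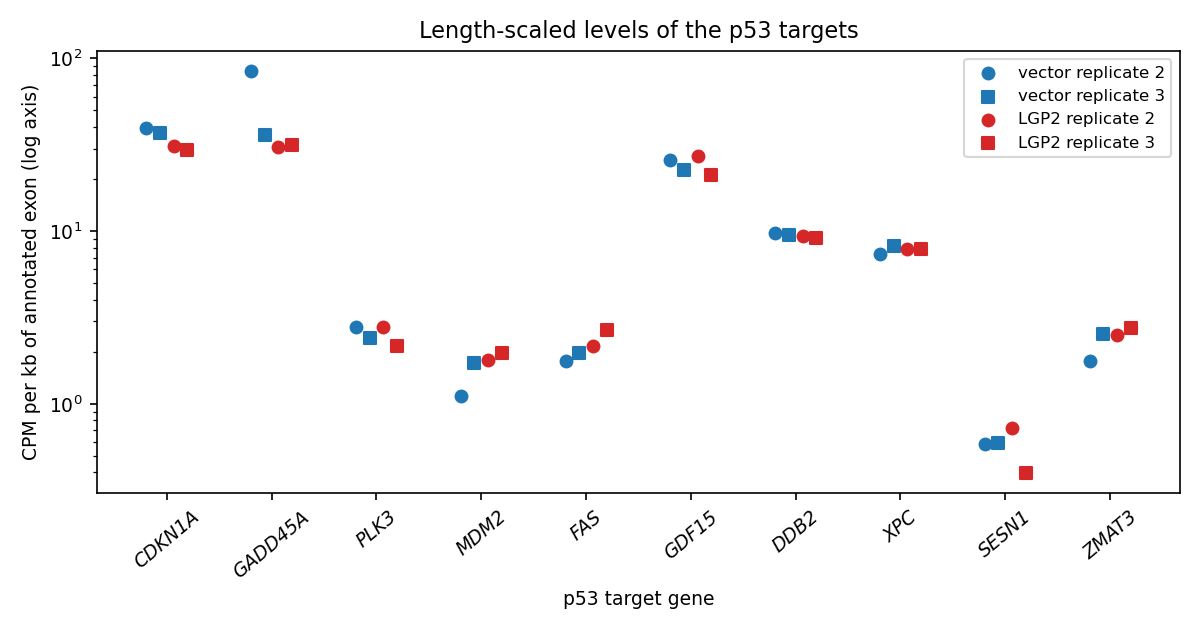
Length-scaled levels of the 10 p53 targets in each library, in CPM per kilobase of annotated exon on a log axis, with the marks of the plot of levels by library. CDKN1A, GADD45A and GDF15 lie between 21.2 and 84.8, and SESN1 lies below 1 in every library.

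Of 43 other p53 targets written as 3 lists, 38 were in the table and 37 were tested. None passed over all genes by edgeR, DESeq2 or limma-voom. By edgeR there were 1 higher and 1 lower at an unadjusted p under 0.05, beside 4.46% of all genes. DESeq2 and limma-voom gave 2 each. Their median log2 fold change was -0.01, with 15 above 0 and 22 below. Without vector replicate 3 edgeR called 3 of them, PLK2 and PMAIP1 as lower and ASCC3 as higher, at log2 fold changes of -0.61, -0.52 and 0.72, again in a fit that has 1 vector library and called 432 of 18677 genes. The median was -0.09 without LGP2 replicate 2.

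The 12 arrest and feedback targets had a median log2 fold change of -0.04, with 4 above 0 and 8 below. The sign of this median depended on single libraries, since it was 0.03 without vector replicate 2 and 0.12 without LGP2 replicate 2, against -0.07 without vector replicate 3 and -0.22 without LGP2 replicate 3. PLK2, a polo-like kinase, was at 270 and 171 CPM in the vector libraries and at 169 and 185 CPM with LGP2, and like GADD45A it was highest in vector replicate 2. NINJ1, a membrane protein of cell rupture, was at 84.3 and 88.1 CPM in the vector libraries and at 78.8 and 76.2 CPM with LGP2, at a fitted log2 fold change of -0.15 (SE 0.13). Neither of them passed.

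The apoptosis targets had 12 tested genes, a median log2 fold change of -0.07 (-0.12 without LGP2 replicate 2 and -0.04 without LGP2 replicate 3), 3 genes above 0 and 9 below. PMAIP1 (NOXA), which neutralises survival proteins of the BCL2 family, was at 172 and 127 CPM in the vector libraries and at 113 and 127 CPM with LGP2, at a fitted log2 fold change of -0.32 (SE 0.17). BBC3 (PUMA), of the same kind, was at 5.07 and 5.10 CPM in the vector libraries and at 3.91 and 3.55 CPM with LGP2, at a fitted log2 fold change of -0.45 (SE 0.28). The vector pair lay above the LGP2 pair for both genes, though by less than 1 CPM for PMAIP1. PERP, a membrane protein, was the most abundant of the list, at 327 and 354 CPM in the vector libraries and 361 and 311 CPM with LGP2. TNFRSF10A, a receptor for TRAIL, was left out by the filter, with 0 counts in both vector libraries and 4 and 8 counts with LGP2.

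The repair and metabolism targets had 13 tested genes, a median log2 fold change of 0.05, 8 above 0 and 5 below. That median was -0.09 without LGP2 replicate 2, 0.19 without LGP2 replicate 3 and 0.11 without vector replicate 3. SAT1, an enzyme that breaks down polyamines, was at 266 and 268 CPM in the vector libraries and at 211 and 172 CPM with LGP2, at a fitted log2 fold change of -0.48 (SE 0.16, unadjusted p = 0.0110, edgeR). ASCC3, a helicase of the alkylation repair and ribosome quality control complexes, was at 32.4 and 40.4 CPM in the vector libraries and at 47.0 and 59.6 CPM with LGP2, at a fitted log2 fold change of 0.55 (SE 0.18, unadjusted p = 0.0131, edgeR). Their groups did not overlap, in opposite directions, and neither passed over all genes. PCNA, the sliding clamp of DNA replication, was at 348 and 384 CPM in the vector libraries and 371 and 354 CPM with LGP2.

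**Figure D4:**
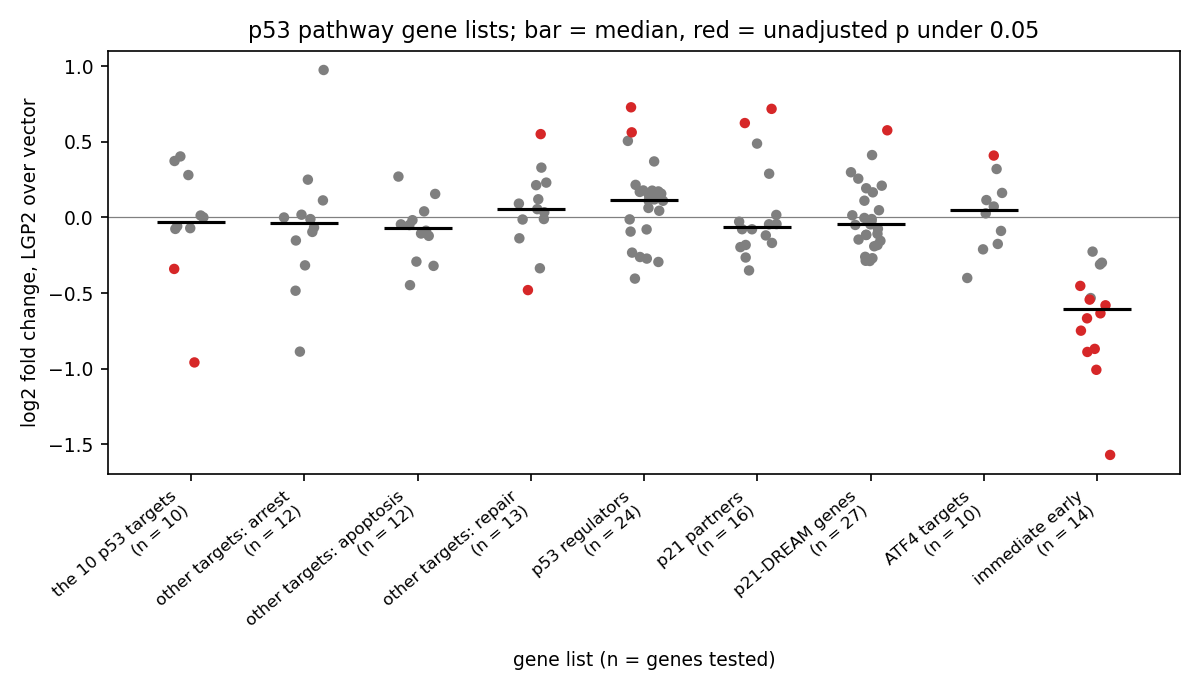
Log2 fold changes of LGP2 over vector for the tested genes of each p53-related list and for ATF4 targets and immediate early genes; each point is 1 gene, the bar is the list's median and red marks an unadjusted p under 0.05. The medians of the p53-related lists lie between -0.07 and 0.11, and that of the immediate early genes lies at -0.61, all in the fit of all libraries; several of them change sign or size when 1 library is left out.

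Upstream of p53, 24 genes for relatives and regulators of p53 had a median log2 fold change of 0.11, with 16 above 0 and 8 below. None passed by edgeR, DESeq2 or limma-voom. Each of the 3 tools gave 2 of the 24 at an unadjusted p under 0.05, which by edgeR 4.46% of all genes had. By edgeR these 2 were the kinase genes ATM (log2 fold change 0.56, SE 0.20) and ATR (0.73, SE 0.20). HIPK2, a kinase that phosphorylates p53, was at 105 and 191 CPM in the vector libraries and at 148 and 145 CPM with LGP2, so that the vector libraries enclosed the LGP2 pair. TRIM28, a corepressor that works with MDM2, was at 236 and 192 CPM in the vector libraries and at 194 and 171 CPM with LGP2. Vector replicate 2 was the highest or lowest library for 20 of the 24, and without it the median was 0.05.

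Downstream of p21, a p21 list held cyclins and their kinases, other kinase inhibitors, and genes of the RB and E2F families. Neither that list nor the genes that p21 represses through the DREAM complex held a called gene by edgeR, DESeq2 or limma-voom. Of 16 tested genes of the p21 list 5 lay above 0 and 11 below, at a median log2 fold change of -0.06. The kinase gene CDK4 was at 437 and 365 CPM in the vector libraries and 396 and 381 CPM with LGP2, and the cyclin gene CCND1 at 257 and 264 CPM in the vector libraries and 261 and 249 CPM with LGP2. By edgeR 2 genes of the p21 list had an unadjusted p under 0.05, which 4.46% of all genes had. They were the cyclin gene CCNE2 (log2 fold change 0.62, SE 0.22) and the RB family gene RBL1 (0.72, SE 0.20), both above 0. DESeq2 gave 2 at that level and limma-voom 3. The 27 DREAM-repressed genes had a median of -0.05, with 10 above 0 and 17 below. It was -0.12 without vector replicate 2 and -0.11 without LGP2 replicate 2, but 0.06 without vector replicate 3 and 0.04 without LGP2 replicate 3. Of these genes 1 had an unadjusted p under 0.05 by edgeR, ECT2 (log2 fold change 0.58), beside 4.46% of all genes. DESeq2 and limma-voom gave 2 each. CCNB1, the mitotic cyclin B1 gene, was at 349 and 357 CPM in the vector libraries and at 431 and 300 CPM with LGP2, so its LGP2 pair enclosed the vector pair. For 26 of these 27 genes the 95% interval lay inside a 2-fold change in either direction, beside 61.1% of all genes tested. The list is abundant, with a median level of 113 CPM against 5.84 CPM over all genes of the table.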

How the data were processed

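RNA was isolated with TRIzol and sequenced from SMARTER mRNA-Seq kit libraries, per the labels' protocols. The authors deposited whole-number values per human gene symbol, which were taken to be raw read counts. As genome build the submitters' processing notes give mm10, which is a mouse build. Aligner, counter, annotation and strand setting were not given in the sources used here. Nothing in the labels says that the replicates were separate cultures; p-values then measure the spread between these libraries alone, which may be technical.

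Counts were tested with edgeR 4.0.16 in R 4.3.3 (quasi-likelihood test, two-sided, TMM scaling, filterByExpr by group, no covariate, adjusted p under 0.05), which kept 17863 of 20913 genes. SE came from the F statistic, and intervals cover the model's error only. The fit was tested on simulated data. Those data had the same relative spread for every gene and no deviating library, so the test does not cover a library like vector replicate 2. DESeq2 1.42.0, limma-voom (limma 3.58.1), other scalings and filters, a replicate block and fits without 1 library were alternatives. Coordinates and exon lengths came from GENCODE 29 on GRCh38 and promoter windows from RefSeq (GRCh38.p14).

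The members and lists were chosen with earlier results of these data known, and no set test was made. All members were named; DHX58 served as a check. From each list in the text the rule took called genes or else the 2 most abundant, and from the 3 lists of other targets also the 2 with the smallest p. Not every gene this rule takes is reported here. All other genes named, among them TP73, TP63, CDKN2A, MDM4, PPM1D, TNFRSF10A, ATM, ATR, CCNE2, RBL1, ECT2, GADD45B, CASP8, ERCC5 and PLK4, were chosen after their values were seen.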

Additional observations from a re-analysis of the deposited data

How the results depend on the processing

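With other scalings, other filters, DESeq2, limma-voom or the replicate block, 0 of the 10 p53 targets and 0 of the other p53 targets were called, and without 1 library 0 to 1 and 0 to 3 were. The count of called genes over the whole table was 3, and it was 1 with no filter, 6 with at least 5 CPM in 2 libraries, 23 by DESeq2, 6 by limma-voom and 2 to 432 without 1 library. The members' median log2 fold change ran from -0.13 without LGP2 replicate 2 to 0.13 without LGP2 replicate 3. SESN1 was left out at 5 CPM. GDF15, near 0, turned to -0.0011 with upper-quartile scaling, -0.0023 by DESeq2 and -0.011 by limma-voom, and without 1 library it ran from -0.19 to 0.17, PLK3 from -0.27 to 0.094, XPC from -0.060 to 0.088 and SESN1 from -0.56 to 0.30; the cause was not tested. With library totals and no TMM factor the median of all genes was 0.04 and that of the members 0.02.

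The groups share the replicate numbers 2 and 3, but the labels do not say what a number marks. Deviations of same-numbered libraries correlated at 0.13 across 13521 genes. With the replicate block 8 genes of the table were called, and GDF15 was at -0.0066. At an unadjusted p under 0.05 that fit gave 3 of the 10 members, MDM2, CDKN1A and GADD45A. Their adjusted p were 0.765, 0.669 and 0.430 (edgeR). The share of all genes at the unadjusted level in that fit was not taken, so the count has no background beside it. SESN1 has the fewest reads of the 10 and the largest SE. Of the promoter windows of the members, 1 held a p53 pair without mismatch and 4 held an adjoining pair when 2 mismatches were allowed, a setting chosen after seeing the data.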

Other observations

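Genes that are paralogs or partners of the p53 targets were measured as well. Of 22 such genes 19 were tested, with a median log2 fold change of 0.02 (-0.08 to 0.07 in fits without 1 library), 11 above 0 and 8 below. None passed by edgeR, and none had an unadjusted p under 0.05 by edgeR, which 4.46% of all genes had. DESeq2 gave 2 and limma-voom 1 at that level and called none. DDB1, which pairs with DDB2 in the lesion-recognising ligase, was at 300 and 241 CPM in vector and at 311 and 250 CPM with LGP2. RAD23B, the partner that stabilises XPC, was at 240 and 230 CPM in vector and at 235 and 242 CPM with LGP2. GADD45B, a paralog of GADD45A, was at 37.7 and 19.4 CPM in vector and at 21.6 and 15.5 CPM with LGP2, and vector replicate 2 was again the highest library. CASP8, the caspase that FAS recruits, was at 50.7 and 55.0 CPM in vector and at 62.4 and 59.8 CPM with LGP2, and the groups did not overlap. PLK4, the kinase that starts centriole duplication, had a log2 fold change of 0.49 (SE 0.23).

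ERCC5, the excision repair nuclease XPG, varied within both groups, at 11.8 and 6.19 CPM in vector and at 15.8 and 2.75 CPM with LGP2. In each group replicate 2 was the higher library, and the log2 fold change was 0.04 (SE 0.60).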
